A study of Mus musculus with 8 samples.

Results

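The cyclic GMP relaxation pathway was followed in the aorta of mice given tamoxifen to delete the gene of serum response factor (SRF) from smooth muscle, killed 8 days afterwards. It was read through 6 of the 18193 genes named by the annotation of the arrays: Gucy1a1, Gucy1b1, Prkg1, Mrvi1, Pde5a and Pde3a. Every probe set annotated to exactly 1 of these symbols was taken, which gave 15 of the 45037 probe sets of the table, 2 or 3 for each gene. All 15 lay above the limit for dim probe sets, so none was left out. Total RNA of the aorta of 4 month-old mice was measured on 8 Affymetrix arrays, 4 of mutants and 4 of controls. The mutants carried the SRF-flex2neo allele together with SM22CreERT2ki/+, a tamoxifen-inducible Cre recombinase knocked into 1 allele of Tagln, which encodes the smooth muscle protein SM22. The controls were littermates with SRF-flex2neo. Both groups received 1 mg of tamoxifen intraperitoneally for 3 days, so tamoxifen itself does not separate them. Cre and the changed Tagln allele were in the mutants only, so their effects and that of deleting Srf cannot be told apart. A number in the titles divides the arrays into 2 sets, and no source used here explains it. Controls 1 and 2 and mutants 1 and 2 form set 1, and the other 4 arrays form set 2. The labels do not say that each array came from its own mouse, so p-values measure only how these arrays vary, and part of that may be technical.

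Nitric oxide from the endothelium relaxes an artery through cyclic GMP. In the smooth muscle cell it binds soluble guanylate cyclase, a heterodimer of an alpha and a beta subunit, which makes cyclic GMP from GTP. Cyclic GMP activates the cyclic GMP-dependent protein kinase I (G kinase), which lowers cytosolic calcium and the sensitivity of the contractile proteins to it, and phosphodiesterases end the signal by hydrolysing the nucleotide. SRF is a transcription factor that drives many contractile genes of smooth muscle through a sequence element called the CArG box.

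Array mutant 2 stood apart from the other 7. Over all probe sets it correlated with the other 7 arrays at 0.961 to 0.974, while those 7 correlated with each other at 0.983 to 0.997. Its summed marker level (log2 of the sum of linear values over a list) was 16.42 for fat, against 14.02 to 15.15 in the other 7 arrays. For nerve and Schwann cells it was 13.55 against 5.84 to 7.78, for endothelium 14.03 against 11.73 to 13.70, and for platelets 10.54 against 6.95 to 9.54. For smooth muscle contractile markers it was the lowest, 18.00 against 18.10 to 18.29. All 16 contractile markers were above the limit for dim probe sets, with the lowest gene mean at 10.03, as the label aorta implies. Srf itself was at 10.52, 10.20, 10.15 and 10.34 in controls and at 10.21, 9.54, 10.32 and 10.34 in mutants in its brighter probe set, where the lowest value is mutant 2. Neither Srf probe set differed beyond the spread between arrays, with -0.20 (limma adjusted p = 0.686) in this one and -0.03 (limma adjusted p = 0.939) in the dimmer one, and -0.01 and 0.06 without mutant 2. No source used here places these probes relative to the deleted part, so Srf does not check the deletion.

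None of the 6 genes differed between mutant and control aorta beyond the spread between arrays. The difference was taken with limma on the log2 values with the set as a term, and p-values were adjusted over all 27023 probe sets tested. Of the 15 member probe sets, 0 passed an adjusted p of 0.05, where the share of all probe sets was 0%. At an unadjusted limma p under 0.05 there were also 0, where the share of all probe sets was 9.55%. With each gene read by its brightest probe set the count was 0 of 6, where the share of all genes was 10.4%. The smallest unadjusted limma p among the members was 0.0505, that of a dim probe set of Pde3a. In no member probe set were all 4 mutants below all 4 controls, a pattern that 1.57% of all probe sets show. Of the 15, 13 had a difference below 0, as did 16218 of all 27023 probe sets tested. The median was -0.20 on the log2 scale, against -0.04 over all probe sets tested. Without mutant 2, 5 of the 15 were below 0, as were 54.2% of all probe sets, and both Gucy1b1 probe sets were among the 5. The median without it was 0.03, and -0.01 over all probe sets. In whole-tissue RNA, fewer smooth muscle cells and less of a transcript per cell cannot be told apart.

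**Figure D1:**
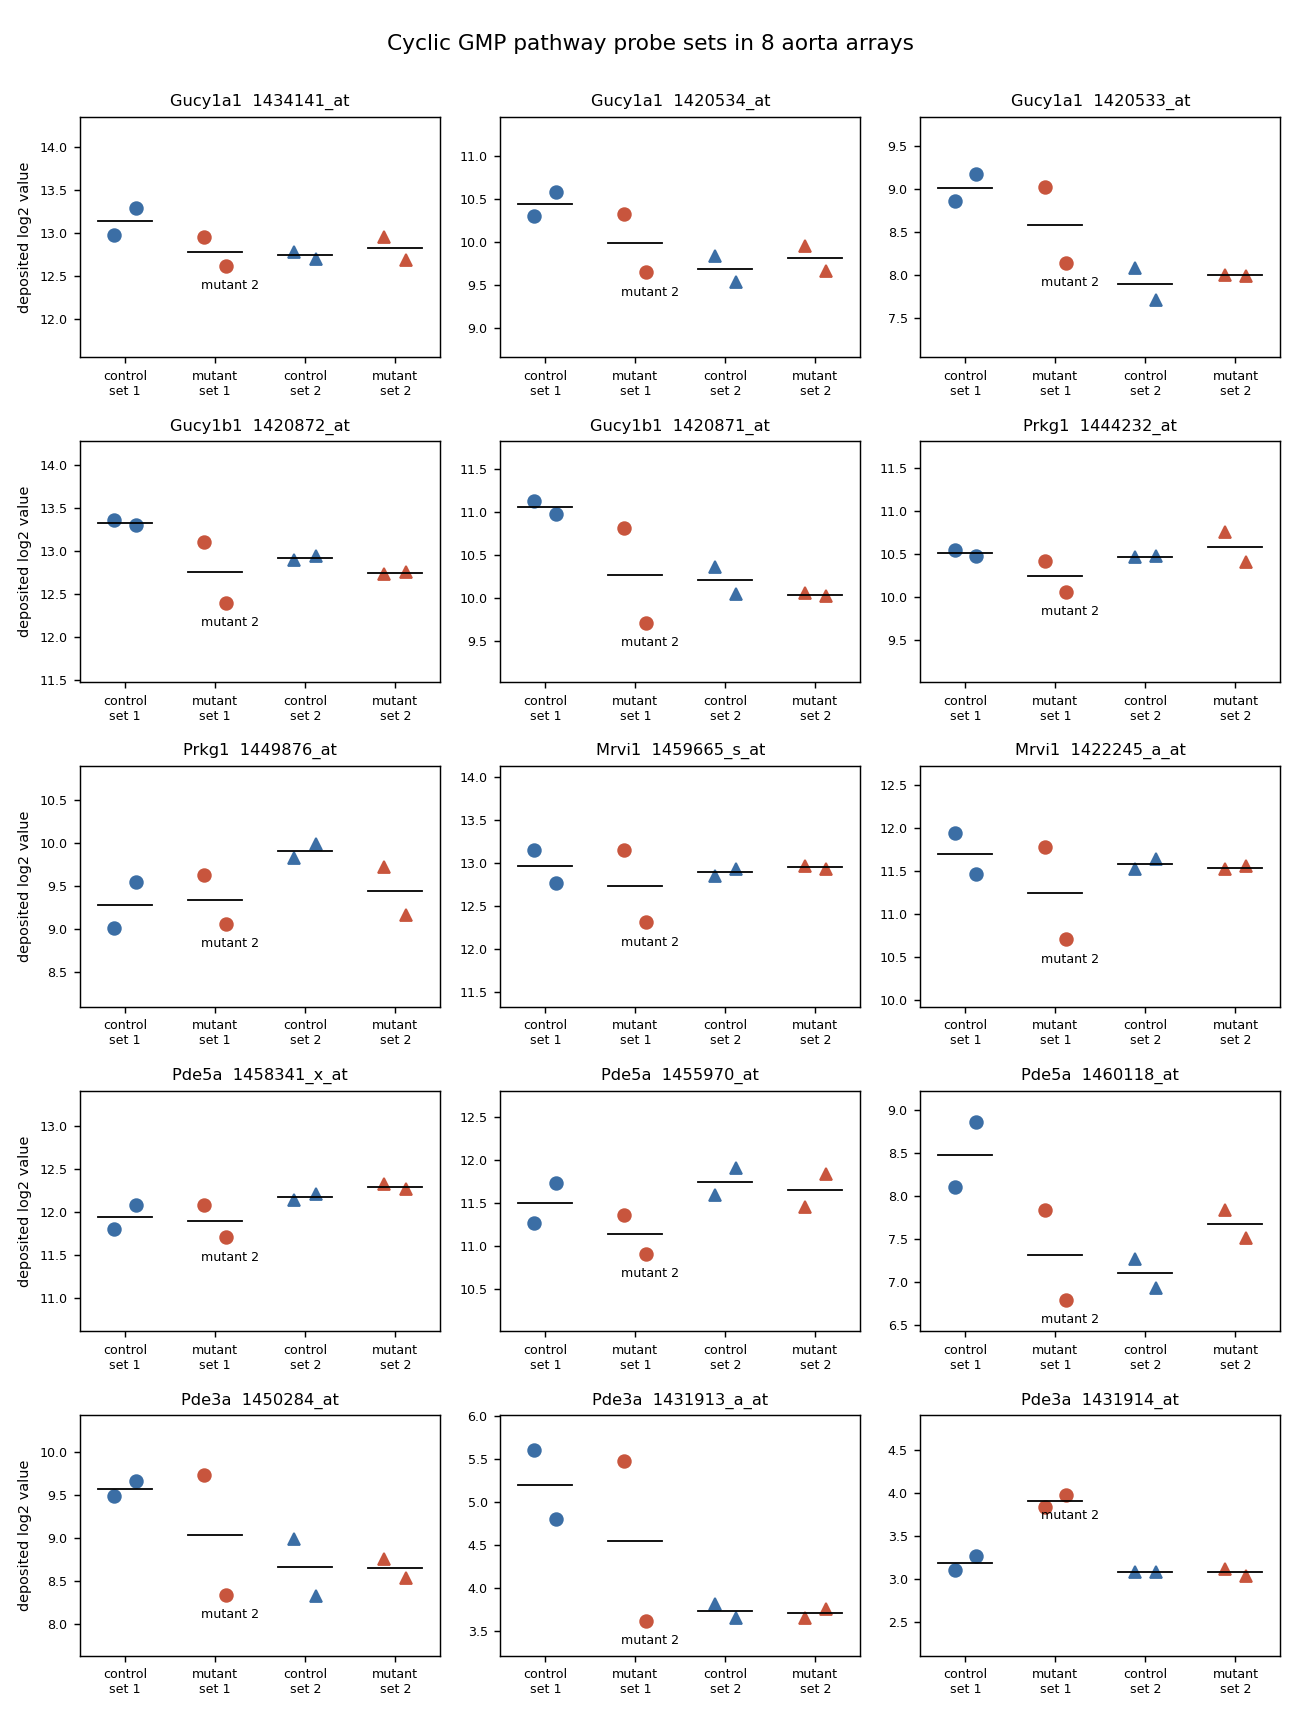
Deposited log2 value (vertical axis) of the 15 probe sets in each of the 8 arrays, with controls in blue and mutants in red, set 1 as circles and set 2 as triangles, and a line at the mean of the 2 arrays of each group in a set. Mutant 2 is labelled, and it is the lowest array in 10 of the 15 panels. The vertical axes span the same number of log2 units in all panels and start at different values.

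By its brightest probe set, the beta subunit gene had the smallest p of the 6 genes. Gucy1b1 encodes the haem-binding subunit that senses nitric oxide. Its brighter probe set, 1420872_at, was at 13.36, 13.30, 12.90 and 12.94 in controls and at 13.11, 12.40, 12.73 and 12.76 in mutants. The groups overlapped across the sets, yet within each set both mutants lay below both controls. It is the only one of the 15 to do so, and 6.17% of all probe sets do. The difference was -0.38 (SE 0.16, 95% confidence interval -0.76 to 0.01), or 0.77 of the control level, and it did not pass (limma unadjusted p = 0.0532, adjusted p = 0.53). The set 1 difference was -0.58 and the set 2 difference -0.18. With mutant 2 left out it was -0.19 (SE 0.04, 95% confidence interval -0.30 to -0.09) with a limma unadjusted p of 0.00328 and an adjusted p of 0.355. Of the 15, 1 had an unadjusted limma p under 0.05 in that fit, as did 8.6% of all probe sets. The dimmer probe set, 1420871_at, was at 11.13, 10.97, 10.36 and 10.04 in controls and at 10.81, 9.71, 10.05 and 10.02 in mutants. Its difference was -0.48 (SE 0.25, limma adjusted p = 0.577), and -0.20 (SE 0.09) without mutant 2.

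The alpha subunit gene gave smaller differences. Gucy1a1 encodes the partner that completes the cyclase, and its 3 probe sets differed by -0.13 to -0.17. The brightest, 1434141_at, was at 12.98, 13.29, 12.78 and 12.70 in controls and at 12.95, 12.62, 12.96 and 12.69 in mutants. The groups overlapped, with control 2 the highest array and mutant 2 the lowest. The difference was -0.13 (SE 0.14, 95% confidence interval -0.46 to 0.19, limma adjusted p = 0.713), and -0.02 without mutant 2. The middle probe set, 1420534_at, differed by -0.17 (SE 0.20) and the dimmest, 1420533_at, by -0.17 (SE 0.22), and without mutant 2 these became 0.03 and 0.06. All 3 were lower in the mutants of set 1 (-0.45 to -0.35) and higher in those of set 2 (0.09 to 0.12).

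Both subunit genes lie on mouse chromosome 3. The promoters of both are shown because the enzyme needs both subunits and SRF is the factor whose gene was targeted. Each line holds the 250 bases before a RefSeq transcription start (GRCm38.p6), 5′ to 3′. Capitals mark GGGCGG, the core of a GC box, and CCAAT, here in its reverse form ATTGG.
Gucy1a1, chr3:82145651-82145900, minus strand: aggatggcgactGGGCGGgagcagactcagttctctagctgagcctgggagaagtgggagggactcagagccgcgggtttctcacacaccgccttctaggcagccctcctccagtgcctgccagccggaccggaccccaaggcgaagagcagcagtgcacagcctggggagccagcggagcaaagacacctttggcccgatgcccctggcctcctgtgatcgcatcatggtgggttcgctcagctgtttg
Gucy1b1, chr3:82074712-82074961, minus strand: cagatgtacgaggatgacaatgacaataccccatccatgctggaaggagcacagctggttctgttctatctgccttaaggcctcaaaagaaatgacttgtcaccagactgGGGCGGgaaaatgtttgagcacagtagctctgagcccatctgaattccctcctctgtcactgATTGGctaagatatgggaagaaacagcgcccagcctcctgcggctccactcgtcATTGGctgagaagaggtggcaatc
In the Gucy1b1 window the reverse CCAAT stood at -78 to -74 and at -24 to -20 relative to the start, and GGGCGG at -140 to -135. In the Gucy1a1 window GGGCGG stood at -238 to -233. Gucy1a1 has a second window in the promoter table, at a start further along the gene, which held 0 matches of every motif searched and is not shown. The promoter table holds 8 such windows for 5 of the 6 genes, and none for Pde3a. The CArG box, searched as exact matches of its consensus (which reads the same on both strands), was in 0 of the 8 windows and in 1.47% of the 32851 windows of all genes. On both strands, CCAAT was in 2 of the 8 and in 33.8% of all, GGGCGG in 5 of the 8 and in 32.7% of all, and TATAAA in 0 of the 8 and in 12.4% of all. The motifs searched do not overlap in the 2 windows shown. A match here is a run of letters, and its absence says only that these letters are not in the window.

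The kinase gene did not separate the groups in either of its probe sets. Prkg1 encodes G kinase I, the main effector of cyclic GMP in smooth muscle. Probe set 1444232_at was at 10.54, 10.48, 10.46 and 10.47 in controls, a spread of 0.04 (SD, n = 4), and at 10.42, 10.06, 10.76 and 10.40 in mutants (SD 0.29). The mutants thus lay on both sides of a tight control group, with mutant 3 the highest and mutant 2 the lowest array. The difference was -0.08 (SE 0.13, 95% confidence interval -0.39 to 0.23, limma adjusted p = 0.824), and 0.03 without mutant 2. Probe set 1449876_at was at 9.01, 9.55, 9.83 and 9.99 in controls and at 9.63, 9.06, 9.72 and 9.16 in mutants. Here the difference was -0.20 (SE 0.22, limma adjusted p = 0.722) and the sets went opposite ways to the first probe set, 0.06 in set 1 and -0.47 in set 2, with -0.14 over both sets without mutant 2. The 2 probe sets of Prkg1 followed each other less closely (r = 0.298 over the 8 arrays after each set mean was taken off) than the 2 of Gucy1b1 (r = 0.966) or the 2 of Mrvi1 (r = 0.975), as a description of these arrays.

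Mrvi1 encodes IRAG, the G kinase substrate that holds the kinase at the inositol trisphosphate receptor and limits calcium release. Probe set 1459665_s_at was at 13.15, 12.77, 12.85 and 12.93 in controls and at 13.15, 12.31, 12.97 and 12.93 in mutants. Apart from mutant 2, the mutants lay within the range of the controls. The difference was -0.09 (SE 0.19, 95% confidence interval -0.53 to 0.36, limma adjusted p = 0.872), and 0.11 (SE 0.10) without mutant 2. Probe set 1422245_a_at was at 11.94, 11.47, 11.52 and 11.64 in controls and at 11.78, 10.71, 11.52 and 11.56 in mutants. Its difference of -0.25 (SE 0.24, limma adjusted p = 0.694) became 0.01 (SE 0.11) without mutant 2, which lay 0.76 below every other array.

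The phosphodiesterases gave the widest spread. Pde5a encodes the cyclic GMP-specific enzyme that sildenafil inhibits. Its brightest probe set, 1458341_x_at, whose suffix marks probes that can match other transcripts, was at 11.80, 12.08, 12.14 and 12.21 in controls and at 12.08, 11.70, 12.32 and 12.26 in mutants. The difference was 0.03 (SE 0.11, 95% confidence interval -0.22 to 0.28, limma adjusted p = 0.914), and 0.12 without mutant 2. Probe set 1455970_at was at 11.27, 11.73, 11.59 and 11.91 in controls and at 11.36, 10.91, 11.46 and 11.84 in mutants, a difference of -0.23 (SE 0.17, limma adjusted p = 0.633), and of -0.12 without mutant 2. The dimmest, 1460118_at, was at 8.10, 8.86, 7.27 and 6.93 in controls and at 7.83, 6.79, 7.84 and 7.51 in mutants. In set 1 both mutants lay below both controls (-1.17), and in set 2 both lay above (0.58). Over both sets the difference was -0.30 (SE 0.43), and 0.09 without mutant 2.

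Pde3a encodes a phosphodiesterase that splits cyclic AMP and that cyclic GMP inhibits, which links the 2 nucleotides. Probe set 1450284_at was at 9.49, 9.66, 8.99 and 8.33 in controls and at 9.73, 8.34, 8.76 and 8.54 in mutants. The highest and the second lowest of the 8 arrays were both mutants of set 1. The difference was -0.28 (SE 0.32, 95% confidence interval -1.03 to 0.48, limma adjusted p = 0.738), and 0.06 (SE 0.17) without mutant 2. The dim probe set 1431913_a_at was at 5.60, 4.80, 3.81 and 3.65 in controls and at 5.48, 3.62, 3.65 and 3.76 in mutants. Only 3 of the 4 arrays of set 1 were above the rest, and its difference was -0.34 (SE 0.41), and 0.10 without mutant 2. The dimmest probe set, 1431914_at, was at 3.11, 3.27, 3.08 and 3.09 in controls and at 3.84, 3.98, 3.12 and 3.04 in mutants. This difference of 0.36 (SE 0.15, limma adjusted p = 0.526) came from set 1 alone, where it was 0.72, while it was -0.01 in set 2, and it was 0.26 without mutant 2. Its mean lay at percentile 45.5 of all probe sets, close to the limit at 40, and it ran against the other Pde3a probe sets (r = -0.514 and -0.573).

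**Figure D2:**
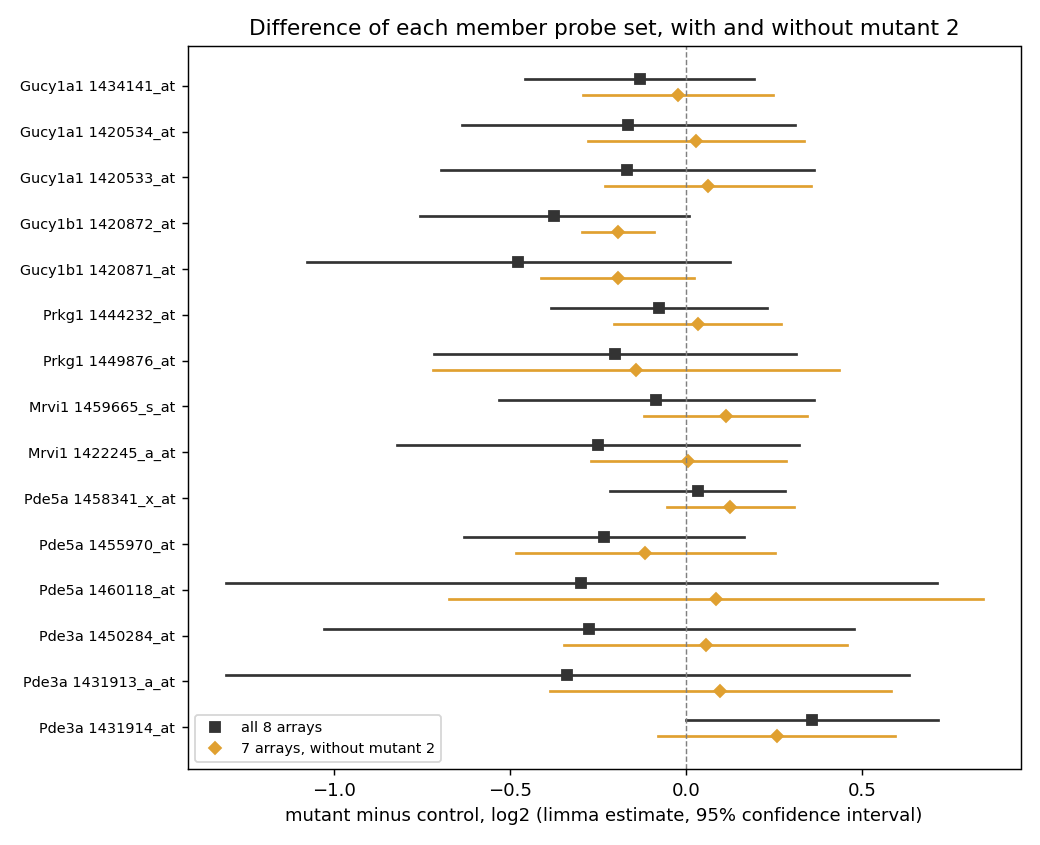
Mutant minus control difference on the log2 scale (horizontal axis) of each member probe set, with the limma estimate and its 95% confidence interval, from all 8 arrays (black squares) and from 7 arrays without mutant 2 (yellow diamonds). The black intervals all include 0. Without mutant 2 the estimates move to the right in all but the last row, and the interval of Gucy1b1 1420872_at (-0.30 to -0.09) does not include 0. An unadjusted limma p under 0.05 was reached there by 1 of the 15, and by 8.6% of all probe sets.

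The intervals set what these 8 arrays could have missed. In 11 of the 15 probe sets the 95% interval reached -0.50 or lower, so a fall of that size could not be told from no change there. The brightest probe sets of Gucy1a1, Prkg1 and Pde5a had the narrower intervals given above. Exact permutation tests of 4 against 4 arrays (two-sided, without the set) on the brightest probe set of each gene gave p = 0.4 for Gucy1a1, 0.1429 for Gucy1b1, 0.6 for Prkg1, 0.8571 for Mrvi1, 0.8 for Pde5a and 0.6 for Pde3a, where the smallest p possible is 0.0286.

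The genotype difference was next compared between the 2 sets. The median over the member probe sets was -0.44 in set 1 and -0.01 in set 2, and 13 of the 15 were below 0 in set 1 against 8 in set 2. In a limma fit with a genotype by set term, 0 of the 15 passed an adjusted p of 0.05, where the share of all probe sets was 0.0518%. At an unadjusted limma p under 0.05 there were 2, where the share of all probe sets was 5.12%. They were Pde5a 1460118_at (limma unadjusted p = 0.0233, adjusted p = 0.824) and Pde3a 1431914_at (limma unadjusted p = 0.00178, adjusted p = 0.492). The sets also differed in level. Gucy1a1 1420533_at was lower in set 2 by limma (-0.85, SE 0.22, adjusted p = 0.0368), at 7.71 to 8.08 against 8.14 to 9.17 in set 1. It was the only 1 of the 15 that passed, against 21.4% of all probe sets.

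**Figure D3:**
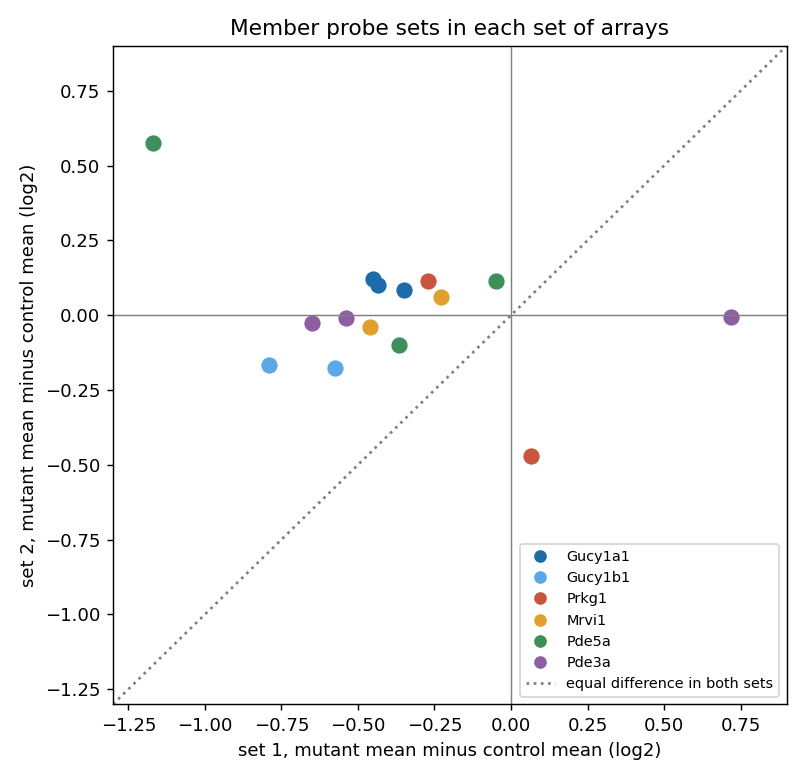
Mutant mean minus control mean (log2) of the 15 member probe sets in set 1 (horizontal axis) and set 2 (vertical axis), 2 arrays per group in each set, coloured by gene. Most points lie left of 0 and near 0 vertically, both Gucy1b1 points lie below 0 in both sets, and the Pde5a point at -1.17 and 0.58 has opposite signs.

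Mutant 2 was low across most members. It was the lowest of the 8 arrays in 10 of the 15 probe sets, as in 35.0% of all probe sets. Against the mean of the other 3 arrays of set 1 it was lower in 14 of the 15, as in 65.5% of all probe sets. The median of this difference was -0.75 on the log2 scale over the members and -0.11 over all probe sets. The lowest was Pde3a 1431913_a_at (-1.67), followed by Pde5a 1460118_at (-1.47) and Pde3a 1450284_at (-1.29). The smooth muscle contractile markers had a median of -0.26 in the same measure. Among the brightest probe sets, all 15 pairs of members correlated positively over the 8 arrays after each set mean was taken off (r = 0.461 to 0.833). Without mutant 2, 7 of the 15 pairs were positive (r = -0.716 to 0.597). The part of the fat, nerve, endothelial and platelet RNA of this array in these values was not tested.

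The genes whose values were most like each member over the 8 arrays, by the same correlation, were Bmt2, Cbr2 and Tacc2 for Gucy1b1 (r = 0.997 to 0.999). For Gucy1a1 they were Dscc1, Maged2 and Snrnp27 (0.984 to 0.988) and for Prkg1 Nedd8, Elob and Iffo1 (0.977 to 0.988). For Mrvi1 they were Emp3, Rangrf and Lpp (0.987 to 0.990), for Pde5a Airn, Zfp277 and Man2c1 (0.963 to 0.986), and for Pde3a Wdr13, Comp and 1700054O19Rik (0.988 to 0.990). Without mutant 2 the same genes gave r = 0.936 to 0.995. They were picked as the highest of 12173 genes over 8 points that include mutant 2, and describe no more than likeness.

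The rest of the pathway was read from 4 lists, each gene by its brightest probe set, and 0 genes of any list passed the adjusted limma p of 0.05. In the list of cyclic GMP synthesis and its upstream signals, 10 of 15 genes were tested, 5 lower and 5 higher, with a median of 0.02 and of -0.01 without mutant 2. At an unadjusted limma p under 0.05, which 10.4% of all genes reached with all 8 arrays, there were 2, with and without mutant 2. Nos3, the endothelial nitric oxide synthase, was at 7.92 ± 0.15 (SD, n = 4) in controls and 9.03 ± 0.49 in mutants. The difference was 1.10 (SE 0.21, limma adjusted p = 0.375) and 0.97 without mutant 2. Nos3 is itself an endothelial marker. All 12 endothelial markers were higher (median 0.97, and 0.75 without mutant 2, where 1 was lower), their summed level running from 11.73 to 12.75 in controls and from 12.40 to 14.03 in mutants. Fibroblast and leukocyte markers were higher too in 11 of 11 genes each (medians 1.03 and 1.15, and 1.08 and 0.98 without mutant 2), and their part in these values was not tested. Npr3, the clearance receptor of natriuretic peptides, differed by -0.52 (SE 0.13), and by -0.59 without mutant 2. Npr1, the receptor that makes cyclic GMP for atrial natriuretic peptide, differed by -0.53 (SE 0.27), and by -0.35 without mutant 2. Gch1, the first enzyme of the synthase cofactor tetrahydrobiopterin, was at 3.05 to 3.10 in controls and at 4.36, 8.09, 3.09 and 3.09 in mutants. Only the mutants of set 1 were high, mutant 2 most of all, and the difference of 1.59 (SE 0.93) was 0.53 (SE 0.25) without it.

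Among the 4 pathway lists, the targets and effectors of G kinase held the most genes with an unadjusted limma p under 0.05. Of 16 listed, 14 were tested, 10 lower and 4 higher, with a median of -0.23 and of -0.14 without mutant 2. At that threshold 5 were lower and 1 higher, where 10.4% of all genes reached it in either direction. Without mutant 2 there were 4 lower and 1 higher, where 8.6% of all probe sets reached it. Kcnma1, the pore of the calcium-activated potassium channel, was at 10.88 ± 0.13 in controls and 10.42 ± 0.26 in mutants. The difference was -0.46 (SE 0.09, limma adjusted p = 0.375), and -0.39 without mutant 2. Vasp, an actin regulator that G kinase phosphorylates, differed by -0.55 (SE 0.15), and by -0.42 without mutant 2. Ppp1r12a, the targeting subunit of myosin phosphatase, differed by -0.30 (SE 0.11), and by -0.20 without mutant 2. Crip2, a LIM protein, differed by 0.23 (SE 0.06), and by 0.20 without mutant 2. The contractile markers were lower in 16 of 16 genes, 9 of them at the same unadjusted threshold, and in 15, with 10 at the threshold, without mutant 2. Their median was -0.25, and -0.17 without mutant 2, with a summed level of 18.23 to 18.29 in controls and 18.00 to 18.13 in mutants. Tagln (-0.29, SE 0.05, limma adjusted p = 0.375) is 1 of the 16 and of the 9, and 1 of its alleles carries Cre in mutants only. How much of its difference comes from that allele was not tested. Acta2 (-0.015, SE 0.05), Cald1 (-0.0275, SE 0.05) and Myl9 (-0.065, SE 0.05) differed least among the contractile markers. SRF drives many contractile genes, so these markers may not follow the share of smooth muscle RNA. Whether that share accounts for the values of the G kinase targets was not tested.

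Of 18 other phosphodiesterases and nucleotide exporters, 14 were tested, 6 lower and 8 higher, with a median of 0.14 that was 0.02 without mutant 2. At an unadjusted limma p under 0.05, which 10.4% of all genes reached with all 8 arrays, there was 1, and 0 without mutant 2. It was Pde7b, a cyclic AMP phosphodiesterase (difference 0.90, SE 0.35, limma adjusted p = 0.51), which differed by 0.68 (SE 0.34) without mutant 2. The next smallest p was that of Pde4b (-0.40, SE 0.19), at -0.31 without mutant 2. Pde8a was at 5.79, 6.18, 6.62 and 6.07 in controls and at 7.08, 8.07, 6.07 and 6.68 in mutants. The exporter Abcc4 was at 5.74, 5.91, 6.62 and 6.10 in controls and at 7.13, 8.62, 6.12 and 6.54 in mutants. In both genes mutant 2 was the highest array, and the set 2 differences were 0.03 and -0.03. The difference of Pde8a was 0.81 (SE 0.40), and 0.46 without mutant 2, and that of Abcc4 was 1.01 (SE 0.51), and 0.50 without it.

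Of 26 genes of the cyclic AMP branch, which relaxes smooth muscle in parallel, 19 were tested, 7 lower and 12 higher, with a median of 0.08 that was also 0.08 without mutant 2. At an unadjusted limma p under 0.05, 3 were higher and 1 lower, where 10.4% of all genes reached it in either direction. Without mutant 2 there were 4 higher and 1 lower, where 8.6% of all probe sets reached it. Ptger4, a prostaglandin E2 receptor, differed by 0.98 (SE 0.19, limma adjusted p = 0.375), and by 0.92 without mutant 2. The adenylate cyclase Adcy4 differed by 0.80 (SE 0.21), and by 0.64 without mutant 2. The cyclic AMP sensor Rapgef3 (Epac1) differed by 1.07 (SE 0.34), and by 0.74 without mutant 2. The kinase subunit Prkar2a differed by -0.21 (SE 0.08), and by -0.17 without mutant 2. The means of all 12 endothelial markers were higher in mutants too, and the part of endothelial RNA in Adcy4 and Rapgef3 was not tested.

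**Figure D4:**
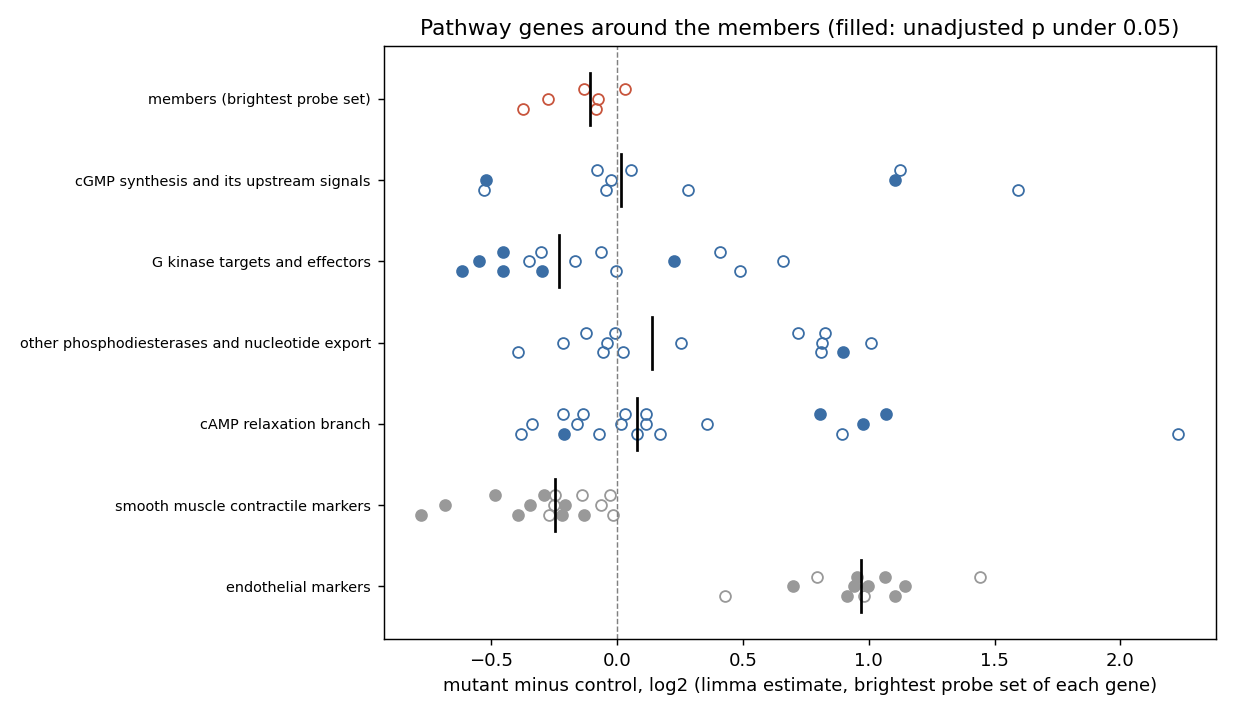
Mutant minus control difference on the log2 scale (limma estimate, horizontal axis) of the 6 members (red), the genes of the 4 pathway lists (blue) and 2 marker lists (grey), each gene by its brightest probe set, with a bar at the median and filled points at an unadjusted p under 0.05. The member median of -0.11 lies between 0 and that of the contractile markers (-0.25), and none of the 6 member points is filled. Without mutant 2, which is not drawn, the members ran from -0.193 (Gucy1b1) to 0.125 (Pde5a), and the contractile median was -0.17.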

How the data were processed

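RNA of 8 aorta samples, 4 mutant and 4 control, was measured on Affymetrix arrays from 2 ug of total RNA each, per the labels' protocols. Each deposited value is taken as the log2 level of 1 probe set, since the table runs from 0.9 to 15.82 (array medians 3.72 to 3.98). Per the submitters' processing notes, the authors used GCOS. Their background correction, scaling and summary steps are not given in the sources used. Values were used as deposited. The number of arrays limits the precision.

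The platform annotation gave 1 symbol for 34945 of 45037 probe sets, several for 932 and none for 9160. The dimmest 40% by mean value were left out, and 27023 probe sets were tested. Limma 3.58.1 (R 4.3.3) was fitted with genotype and set as terms and a mean-variance trend, two-sided, with Benjamini-Hochberg adjustment over all probe sets tested, at a threshold of 0.05. SE is the moderated standard error. The fit was tested on simulated data. Promoters are from RefSeq (GRCm38.p6), and figures used Python 3.11.15.

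Members, lists and tests were chosen with earlier results of these data known. Named genes are all member probe sets and up to 4 genes of each pathway list with the smallest p. Named too are Srf, the contractile markers Tagln, Acta2, Cald1 and Myl9, and the 3 genes most like each member. The within-set order of Gucy1b1 was noticed after its values were seen. Alternatives were no filter or a stricter one (60%), array medians set equal, quantile normalization, array weights, a fit without the set, robust or untrended variances, each array left out and each set alone.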

Additional observations from a re-analysis of the deposited data

Results flagged for a closer look

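In 3 of the 15 member probe sets, 1 array lay far from the other 3 of its group. Mutants and controls were each checked by Dixon's test at the 95% level, so each probe set gave 2 groups. The test flags about 5% of groups, not of probe sets, by chance. No share over all probe sets is given here. Mutant 1 was at 9.02 in Gucy1a1 1420533_at, where the other mutants were at 7.99 to 8.14, and at 5.48 in Pde3a 1431913_a_at, where they were at 3.62 to 3.76. The test ignores the set, and both are probe sets in which the controls of set 1 were also above those of set 2. In each, mutant 1 lay between the 2 controls of its own set (8.86 and 9.17, and 5.60 and 4.80). Control 2 was at 3.27 in Pde3a 1431914_at, where the other controls were at 3.08 to 3.11, a small step in a dim probe set.

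In Pde5a 1460118_at the genotype difference had opposite signs in the sets, -1.17 in set 1 and 0.58 in set 2, with no overlap of the groups within either set. The difference between the sets was 1.75 (SE 0.58, limma unadjusted p = 0.0233, adjusted p = 0.824). The brighter Pde5a probe sets gave -0.05 and -0.37 in set 1 and 0.12 and -0.10 in set 2.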

How the results depend on the processing

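No member probe set reached an adjusted p of 0.05 in any of the 18 alternatives (lowest 0.325, Gucy1b1 1420872_at with array weights). Over all probe sets, the count of 0 at an adjusted p of 0.05 became 11 without control 3 and 10 with array weights, none of them a member. Of 268 recomputed differences, 242 kept their sign. At an unadjusted p under 0.05 the count of 0 became 1 with the stricter filter, robust empirical Bayes, set 1 alone or array weights, 2 in set 2 alone, and 0 to 2 with single arrays left out. These were Gucy1b1 (both probe sets), Pde3a 1431914_at and Pde5a 1460118_at. The share of all probe sets at that threshold was 11.07% with the stricter filter, 9.34% with robust empirical Bayes and 12.4% with array weights. That share was 7.05% in set 1 alone, 5.44% in set 2 alone and 5.3% to 10.86% with single arrays left out. The count of member probe sets with a genotype by set interaction was 0 to 4 when single arrays were left out, and 4 without mutant 1, where mutant 2 is the only mutant of set 1 and is assumed to vary like the other arrays (10.28% of all probe sets passed there). The median difference of -0.20 was 0.03 without mutant 2, -0.02 with array weights and -0.28 with median centring, which moved the median of all probe sets to -0.11.

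Signs turned as follows, and the cause was not tested. In set 2 alone Gucy1a1 was at 0.085, 0.12 and 0.10, Prkg1 1444232_at at 0.12, Mrvi1 1459665_s_at at 0.06, Pde5a 1460118_at at 0.58 and Pde3a 1431914_at at -0.005. In set 1 alone Prkg1 1449876_at was at 0.065 and Pde5a 1458341_x_at at -0.05, which was -0.04 with median centring. With array weights Gucy1a1 1420533_at was at 0.0505, Mrvi1 1459665_s_at at 0.0934, and Pde3a 1450284_at and 1431913_a_at at 0.0466 and 0.0812. The mean of all probe sets of Pde5a was -0.17 where the brightest gave 0.03. With single arrays left out the ranges that crossed 0 were -0.224 to 0.112 and -0.422 to 0.006 for Mrvi1 1459665_s_at and 1422245_a_at, -0.027 to 0.125 and -0.54 to 0.085 for Pde5a 1458341_x_at and 1460118_at, -0.282 to 0.028 and -0.295 to 0.062 for Gucy1a1 1420534_at and 1420533_at, -0.188 to 0.033 for Prkg1 1444232_at, and -0.50 to 0.056 and -0.647 to 0.097 for Pde3a 1450284_at and 1431913_a_at. In all 9 the highest value was without mutant 2. No paired analysis was possible because the replicate numbers follow the order of the samples and pair nothing.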
